A study of Mus musculus with 6 samples.

Results

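The 9 genes described here mark newly born neurons and dividing cells in the mouse brain: Dcx, Igfbpl1, Sox11, Sox4, Dlx1, Dlx2, Eomes, Mki67 and Top2a. They were chosen by symbol, and each matched 1 of the 55450 genes in the deposited count tables through GENCODE M21. All 9 passed the filter on low counts, along with 21237 genes in all. The libraries were made from total RNA of whole mouse brain after size selection for long molecules, with 3 libraries from wild-type (WT) brain and 3 from brain labelled TRMT1L KO, a knockout of a relative of the tRNA methyltransferase TRMT1. The labels call the replicates biological triplicates and give no age, strain, sex, knockout allele or dissection, and no treatment.

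Most neurons of the mouse brain are born before or shortly after birth, and in the adult new neurons come mainly from the subventricular zone, which feeds the olfactory bulb, and from the dentate gyrus. Stem cells there give rise to dividing progenitors, which become migrating neuroblasts and then mature neurons. Along the inhibitory route to the olfactory bulb the homeobox factors Dlx1 and Dlx2 act in progenitors and neuroblasts, and along the excitatory route Eomes (also called Tbr2) marks intermediate progenitors. Sox4 and Sox11 switch on genes of immature neurons in both routes. Several of these genes are also used by mature cells: Dlx1 in some inhibitory interneurons, and Eomes in mitral and tufted cells of the olfactory bulb and in unipolar brush cells of the cerebellum.

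Mki67 and Top2a are cell-cycle genes, and their promoters are shown because both carry the letters of sites known from such genes, the CCAAT box and the cell cycle homology region (written TTTGAA or TTCGAA). The sequences are from RefSeq on GRCm38.p6, hold the 250 bases before the annotated start, and are written 5′ to 3′ on the strand of the gene, with every match to these motifs on either strand in capitals. The Mki67 promoter is at chr7:135716380-135716629 (minus strand) and that of Top2a at chr11:99024190-99024439 (minus strand).
Mki67: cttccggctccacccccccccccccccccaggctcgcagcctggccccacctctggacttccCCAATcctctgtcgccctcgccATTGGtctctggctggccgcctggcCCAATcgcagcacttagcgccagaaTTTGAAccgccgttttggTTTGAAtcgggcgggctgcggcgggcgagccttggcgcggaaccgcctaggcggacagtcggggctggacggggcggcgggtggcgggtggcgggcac
Top2a: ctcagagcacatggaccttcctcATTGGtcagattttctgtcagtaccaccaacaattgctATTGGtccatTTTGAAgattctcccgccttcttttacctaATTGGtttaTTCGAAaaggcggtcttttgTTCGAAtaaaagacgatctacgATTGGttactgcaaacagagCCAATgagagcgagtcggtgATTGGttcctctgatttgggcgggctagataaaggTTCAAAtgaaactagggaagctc

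The Mki67 window holds 3 CCAAT matches and 2 of TTTGAA, and the Top2a window 6 CCAAT matches, 2 of TTTGAA and 2 of TTCGAA. Of 32851 promoter windows of the same length, 33.8% hold CCAAT on either strand, 10.1% hold it at least 2 times and 17.1% hold TTTGAA or TTCGAA. At least 2 CCAAT matches together with TTTGAA or TTCGAA occur in 1.71% of the windows. The promoter table held 8 of the 9 genes, and 7 of these 8 hold CCAAT and 3 hold TTTGAA or TTCGAA, Sox11 being the other gene with both. Among other division genes with an entry, CCAAT occurs in a promoter of 19 of 23 mitosis genes and 10 of 16 DNA replication genes, against 37.5% of all genes, and TTTGAA or TTCGAA in 9 of 23 and 3 of 16, against 19.6%. A match is a description of the letters and was not tested as a binding site.

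Counts in genes on the chosen strand ranged from 31201119 to 36145961 per library, so a count of 3, the upper limit that a count of 0 allows, corresponds to between 0.0824 and 0.0957 CPM (counts-per-million of the TMM-scaled total). Trmt1l, the targeted gene, was counted between 1034 and 1279 times per WT library and between 93 and 106 times per KO library, so every library fell on the side of its label. Neuronal markers were abundant in all 6 libraries, with Snap25 at a mean of 1659.6 CPM. Over all genes tested, the quasi-likelihood test of edgeR, adjusted by the Benjamini-Hochberg method, called 0.00942% between KO and WT at 0.05, and 7.92% had an unadjusted p-value below that level.

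That test called 0 of the 9 genes, against the 0.00942% of all genes called. Without adjustment 0 of 9 were higher in KO, against 4.54% of all genes, and 1 of 9, Mki67, was lower, against 3.38%, which makes 1 of 9 in either direction, against 7.92%. Limma-voom also called 0 of 9, with 2 unadjusted, against 7.68% of all genes by that tool. DESeq2 called 0 of the 4 to which it gave an adjusted p-value, with 2 of 9 unadjusted, against 5.46% of all genes. Without WT library 3 the unadjusted count in edgeR was 5 of 9 higher and 1 lower, where 3.66% and 2.66% of all genes were, and 0 passed after adjustment. Without WT library 1, WT library 2 or KO library 2, 0 of 9 were higher, where 3.35%, 3.46% and 4.2% of all genes were. Without KO library 1 or KO library 3, 2 of 9 were higher, where 4.8% and 4.42% of all genes were. In KO, 6 of the 9 had a higher fitted level and 3 a lower one. The median log2 fold change (KO over WT) was 0.12 over the 9 genes and 0.00013 over all genes tested. For 1 of the 9, again Mki67, every KO library lay below every WT library, as for 6.97% of all genes tested. For 0 of the 9 did every KO library lie above, as for 7.46% of all genes, and 14.4% of all genes showed a separation in either direction. In whole brain, fewer cells of a type and less RNA per cell cannot be told apart.

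**Figure D1:**
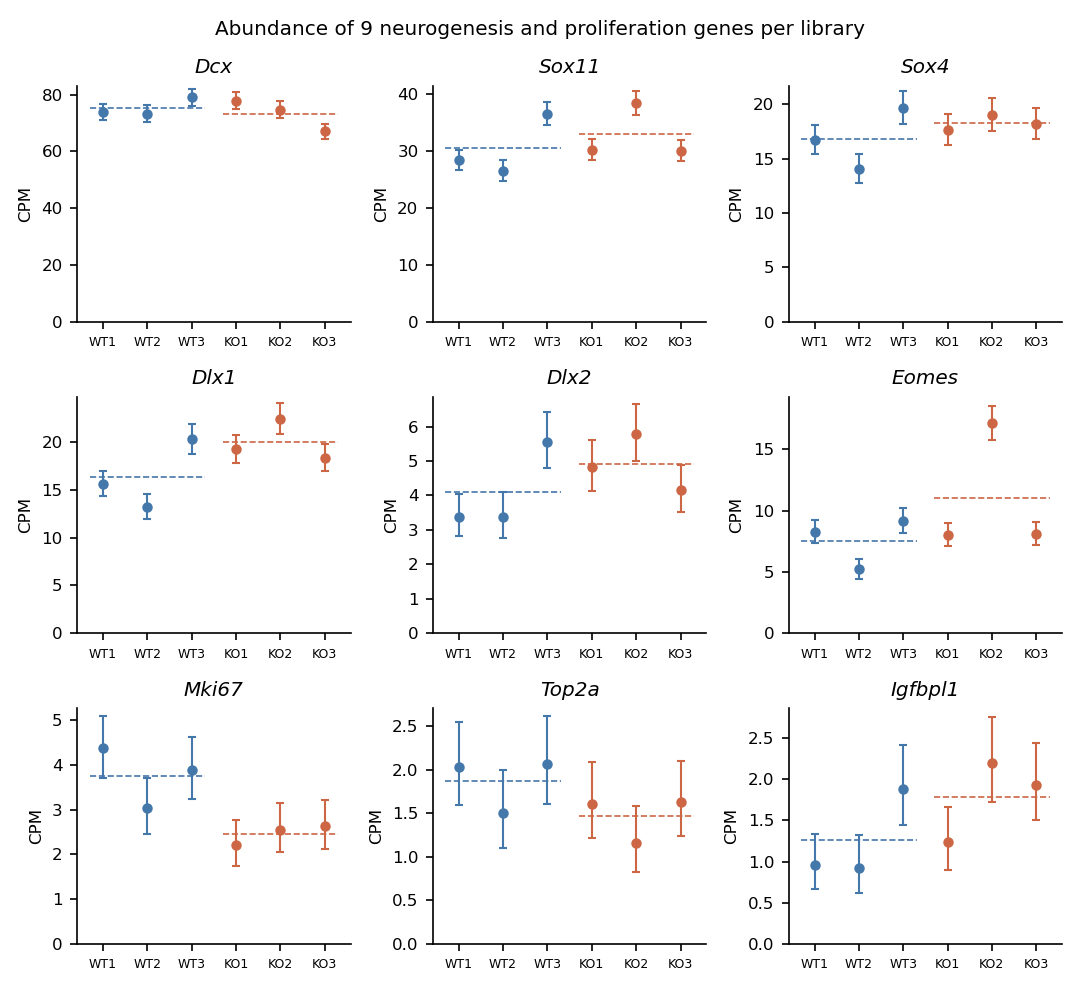
Abundance of each gene in CPM (linear axis from 0) in the 6 libraries, WT in blue and KO in orange; bars are 95% Poisson intervals of the count alone and dashed lines are group means. Mki67 lies between 3.03 and 4.37 CPM in WT and between 2.22 and 2.63 CPM in KO, and Eomes stands at 17.1 CPM in KO library 2.

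Dcx encodes doublecortin, a microtubule-binding protein of migrating neuroblasts, and lies on chromosome X from 143855842 to 143933311 (minus strand, GRCm38; ENSMUSG00000031285.14). It was the most abundant of the 9 genes per length, at 5.87 CPM per kilobase of annotated exon, above 63.9% of all genes tested. Its abundance was 73.7, 73.2 and 79.0 CPM in WT libraries 1 to 3 and 77.8, 74.7 and 67.0 CPM in KO libraries 1 to 3. The groups overlapped, and KO library 3 was the lowest of the 6. The log2 fold change was -0.04 (SE 0.0616, 95% interval -0.18 to 0.09, edgeR adjusted p = 0.888), the narrowest interval among the 9. The highest library exceeded the lowest by 1.18-fold.

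Igfbpl1 encodes a secreted protein related to the insulin-like growth factor binding proteins that is used as a marker of newborn neurons (ENSMUSG00000035551.6, chromosome 4 from 45809468 to 45826923, minus strand). It was scarce, with counts of 35, 29 and 62 in WT and of 43, 74 and 70 in KO, or 0.962, 0.925 and 1.88 CPM against 1.24, 2.20 and 1.94 CPM. WT library 3 and KO libraries 2 and 3 were high and the other 3 libraries low, so the groups overlapped. The log2 fold change was 0.51 (SE 0.293, 95% interval -0.13 to 1.15, edgeR adjusted p = 0.694). It was 0.92 without WT library 3, and 0.34 without WT library 1, WT library 2 or KO library 2. Within WT the SD was 43.2% of the mean, the widest relative spread of any of the 9 genes in that group.

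Sox11 and Sox4 are genes of 1 exon each whose products belong to the SoxC group of transcription factors. Sox11 (ENSMUSG00000063632.6, chromosome 12 from 27334264 to 27342574, minus strand) stood at 28.4, 26.5 and 36.6 CPM in WT and 30.2, 38.5 and 30.1 CPM in KO. WT library 3 and KO library 2 were high, and the groups overlapped. Its log2 fold change was 0.11 (SE 0.121, 95% interval -0.15 to 0.38, edgeR adjusted p = 0.844). It was -0.02 without KO library 2, 0.02 without WT library 2 and 0.26 without WT library 3.

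Sox4 (ENSMUSG00000076431.4, chromosome 13 from 28948919 to 28953713, minus strand) stood at 16.7, 14.0 and 19.7 CPM in WT and 17.6, 19.0 and 18.2 CPM in KO. WT libraries 2 and 3 were the lowest and the highest of the 6, with all KO libraries between them. The log2 fold change was 0.12 (SE 0.105, 95% interval -0.11 to 0.35, edgeR adjusted p = 0.800), with 0.010 without WT library 2 and 0.25 without WT library 3. Per length both genes had close levels, with a ratio of Sox11 to Sox4 of 1.05 ± 0.0599 in WT and 1.04 ± 0.115 in KO (SD, n = 3). Gm26735, a noncoding RNA on the opposite strand, overlaps Sox4, so counting without strand kept 31.7% of the Sox4 counts and gave a log2 fold change of 0.23 (edgeR adjusted p = 0.783).

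Dlx1 and Dlx2 are neighbouring homeobox genes on chromosome 2, Dlx1 from 71528113 to 71533981 (plus strand, ENSMUSG00000041911.3) and Dlx2 from 71543408 to 71546754 (minus strand, ENSMUSG00000023391.8). Dlx1 stood at 15.7, 13.2 and 20.3 CPM in WT and 19.3, 22.5 and 18.4 CPM in KO. WT library 3 lay among the KO libraries and WT libraries 1 and 2 below all of them. The log2 fold change of Dlx1 was 0.29 (SE 0.133, 95% interval -0.0027 to 0.58, edgeR adjusted p = 0.628). It was 0.47 without WT library 3 (adjusted p = 0.661) and 0.16 without WT library 2.

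Dlx2 had the same high and low libraries at a lower level, with 3.38, 3.38 and 5.56 CPM in WT and 4.83, 5.79 and 4.15 CPM in KO. Its log2 fold change was 0.26 (SE 0.198, 95% interval -0.17 to 0.70, edgeR adjusted p = 0.772). It was 0.54 without WT library 3, 0.13 without KO library 2, and 0.14 without WT library 1 or WT library 2. Per length the ratio of Dlx1 to Dlx2 was 2.15 ± 0.270 in WT and 2.17 ± 0.153 in KO (SD, n = 3), which is a smaller difference than the SD of either group. Counts on the strand opposite to Dlx1 made up 33.0% of the stranded counts at this gene, against 0.0788% at Dcx. Tested in the same way, these opposite counts gave a log2 fold change of 0.28, with an unadjusted p-value of 0.0307 (edgeR adjusted p = 0.807). Dlx1as, an antisense RNA that overlaps Dlx1, had between 86 and 135 counts per library and a log2 fold change of 0.03 (edgeR adjusted p = 0.982).

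Other genes of the same inhibitory route gave these values. Dlx5, a further homeobox factor, stood at 3.77, 3.19 and 4.65 CPM in WT and 4.26, 5.73 and 4.26 CPM in KO (log2 fold change 0.29, edgeR adjusted p = 0.694). Sp8, a zinc finger factor of olfactory bulb interneurons, stood at 5.08, 3.86 and 6.29 CPM in WT and 6.45, 7.78 and 5.48 CPM in KO (0.37, edgeR adjusted p = 0.634). Dlx6, the neighbour of Dlx5, lay between 5.63 and 7.90 CPM in WT and between 5.92 and 6.59 CPM in KO (-0.05, edgeR adjusted p = 0.944). Sp9, a relative of Sp8, had a log2 fold change of 0.15 (edgeR adjusted p = 0.876). The groups overlapped for each of these 4 genes. KO library 2 was the highest of the 6 for Dlx5 and Sp8, as for Dlx1 and Dlx2, and WT library 3 was the highest for Dlx6 and Sp9. All but Sp8 were named after their values were seen.

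Eomes, a T-box factor on chromosome 9 from 118478212 to 118486132 (plus strand, ENSMUSG00000032446.14), varied most between libraries. It stood at 8.24, 5.20 and 9.15 CPM in WT and 7.97, 17.1 and 8.05 CPM in KO. KO library 2 had 576 counts, and the other 5 libraries between 163 and 301, with KO libraries 1 and 3 inside the WT range. The log2 fold change was 0.55 (SE 0.279, 95% interval -0.07 to 1.16, edgeR adjusted p = 0.654). Without KO library 2 it was 0.085 (adjusted p = 0.940), and without WT library 2 it was 0.34.

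Of 7 olfactory bulb markers other than Eomes, 3 were separated between the groups. Tbx21, a T-box factor of mitral and tufted cells, stood at 0.797, 0.383 and 0.820 CPM in WT and 1.24, 1.52 and 1.13 CPM in KO. Cdhr1, a cadherin of the same cells, stood at 27.4, 21.1 and 28.7 CPM in WT and 34.1, 44.5 and 29.4 CPM in KO. Doc2g, a C2 domain protein gene of the bulb, stood at 2.78, 2.04 and 3.25 CPM in WT and 3.68, 5.29 and 3.62 CPM in KO. For these 3 of the 7 markers every KO library lay above every WT library, as for 7.46% of all genes tested, with KO library 2 highest and WT library 2 lowest. Eomes had the same highest and lowest libraries but overlapped between the groups. Their log2 fold changes were 0.94, 0.48 and 0.64, and none passed (edgeR adjusted p = 0.576 for each).

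The other 4, Nmb, Th, Reln and Trh, overlapped between the groups, with log2 fold changes of 0.23, 0.23, -0.0041 and 0.12. KO library 2 was the highest for Nmb, Th and Reln and WT library 3 for Trh. The summed level of the 7 bulb markers other than Eomes ranged from 391 to 436 CPM in WT and from 399 to 461 CPM in KO, mostly from Reln, and none was at 0. Markers of unipolar brush cells summed to between 397 and 432 CPM in WT and between 380 and 422 CPM in KO, highest in WT library 1. The part of the bulb's markers in the values of Eomes and the Dlx genes was not tested.

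Genes of the olfactory mucosa, the nasal tissue beside the bulb, which also forms neurons, were uneven between libraries. Cyp2g1, an enzyme gene of that mucosa, had 260 counts in WT library 3 and 107 in KO library 3, and 0 or 1 in the other 4 libraries. Omp, a marker of mature olfactory sensory neurons, stood at 5.22, 3.25 and 11.9 CPM in WT and 5.47, 9.24 and 8.22 CPM in KO. The 14 mucosa markers summed to between 104 and 147 CPM in WT and between 114 and 126 CPM in KO, highest in WT library 3, and none was at 0 in all libraries. Most of this sum came from Adcy3, between 60.3 and 66.3 CPM over the 6 libraries, and Gng13, between 27.2 and 36.5 CPM. Among the 9 genes, Dcx, Sox4 and Top2a were highest in WT library 3. Sox11, Dlx1, Dlx2 and Igfbpl1 were high in it and highest in KO library 2, where Cyp2g1 had 0 counts and Omp was the second highest of the 6. The part of the mucosa's genes in these values was not tested. Without WT library 3 and KO library 3, chosen after seeing these values, the edgeR test still called 0 of the 9 genes, with 6 higher and 1 lower in KO before adjustment, where 3.97% of all genes were higher and 3.23% lower. Fold changes on the log2 scale were then 0.53 for Dlx1 and 0.65 for Dlx2. Without WT library 3 and KO library 2, also chosen after seeing the data, 4 of the 9 were higher and 1 lower before adjustment. Of all genes 4.18% were higher and 2.51% lower in that fit, where Dlx1 was 0.38, Dlx2 was 0.41 and 0 of the 9 passed.

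**Figure D2:**
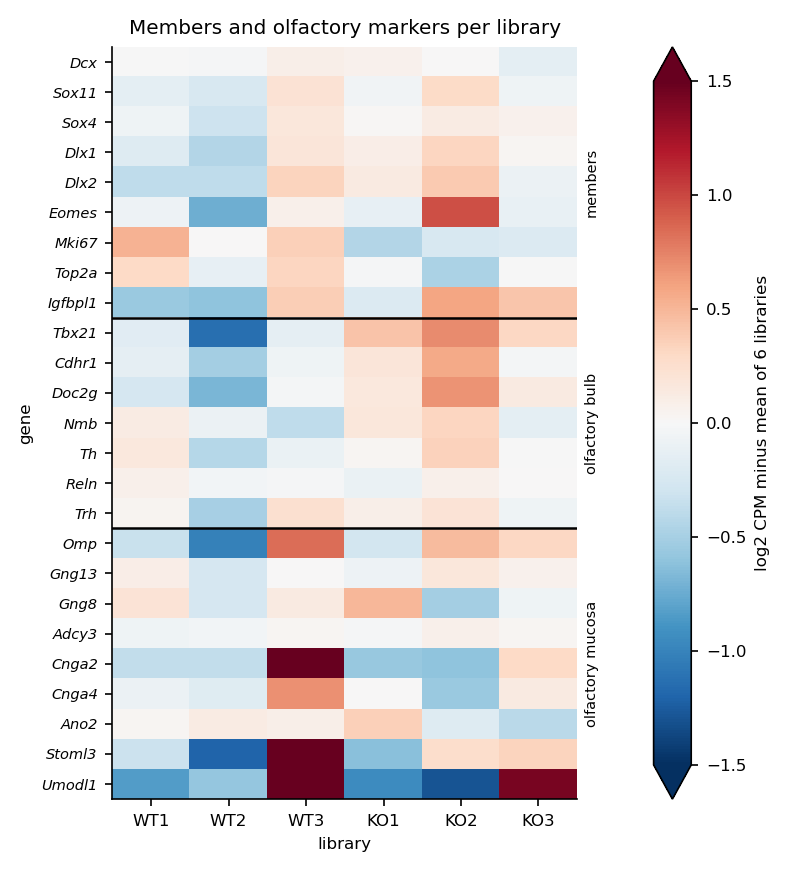
Log2 CPM of each gene minus its mean over the 6 libraries (color, red above and blue below the mean, limited at 1.5), with libraries in columns and genes in rows: the 9 genes, then markers of the olfactory bulb and of the olfactory mucosa that passed the filter. Eomes, Tbx21, Cdhr1 and Doc2g are highest in KO library 2 and lowest in WT library 2, while Cnga2, Stoml3 and Umodl1 are highest in WT library 3.

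Mki67 encodes Ki-67, a protein that coats chromosomes in dividing cells, and lies on chromosome 7 from 135689784 to 135716361 (minus strand, ENSMUSG00000031004.8). It had 159, 95 and 128 counts in WT and 77, 86 and 95 counts in KO, or 4.37, 3.03 and 3.89 CPM against 2.22, 2.55 and 2.63 CPM. The KO libraries all lay below the WT libraries. KO library 3 and WT library 2, the closest of the 2 groups, had the same count of 95, and their 95% Poisson intervals in CPM overlapped (2.13 to 3.21 against 2.45 to 3.70), so their separation was within counting error. The KO mean was 65.5% of the WT mean, with a log2 fold change of -0.61 (SE 0.161, 95% interval -0.97 to -0.26). The unadjusted p-value was 0.00271, the 92nd smallest of the table, and did not survive adjustment (edgeR adjusted p = 0.576).

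Mki67 also collected many reads on its opposite strand, 43.4% of the stranded counts at the gene, with 98, 87 and 67 in WT and 63, 89 and 86 in KO. These overlapped between the groups, and tested in the same way gave a log2 fold change of -0.14 (edgeR adjusted p = 0.965). Gm45240, a gene model of unsettled type on that strand inside Mki67, had 5 counts or fewer in each library. Counting without strand therefore added the opposite reads to Mki67 and gave a log2 fold change of -0.40 (adjusted p = 0.584).

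Top2a encodes topoisomerase II alpha, which untangles DNA in cells preparing to divide (ENSMUSG00000020914.17, chromosome 11 from 98992943 to 99024189, minus strand). Its counts were 74, 47 and 68 in WT and 56, 39 and 59 in KO, or 2.03, 1.50 and 2.07 CPM against 1.61, 1.16 and 1.63 CPM. WT library 2 lay below KO libraries 1 and 3, so the groups overlapped. The log2 fold change was -0.35 (SE 0.200, 95% interval -0.79 to 0.09, edgeR adjusted p = 0.696), and -0.21 without KO library 2. Per length Mki67 exceeded Top2a 1.81-fold ± 0.119 in WT and 1.55-fold ± 0.383 in KO (SD, n = 3). The length used for Top2a is all annotated exons, 9013 bases, while its longest transcript has 5221 bases. For Mki67 both lengths are 10061 bases, so this ratio and the order of the 2 genes depend on the length used. Both were among the scarcest of the 9 genes, at 0.310 and 0.185 CPM per kilobase, above 9.26% and 4.93% of all genes tested.

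**Figure D3:**
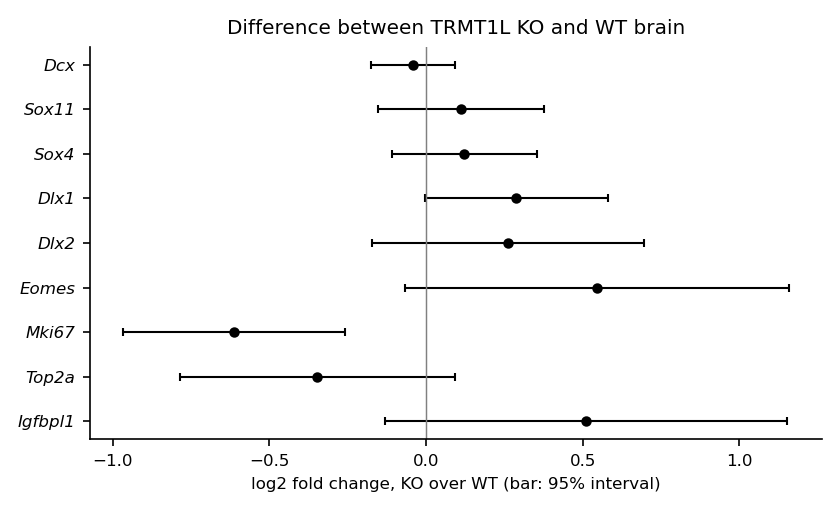
Log2 fold change of each gene, KO over WT, from edgeR's quasi-likelihood fit, with its 95% interval before any adjustment for the number of genes tested. The interval of Mki67 (-0.97 to -0.26) lies below 0, and those of the other 8 genes include 0.

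The rest of the cell division machinery was described with lists of other genes. Of 28 mitosis genes, 26 were tested. In edgeR 0 passed in either direction and 0 had an unadjusted p-value under 0.05, against 7.92% of all genes, with 9 fold changes above 0 and 17 below and a median of -0.06. Foxm1, a transcription factor of mitotic genes, stood at 1.87, 2.01 and 1.55 CPM in WT and 1.27, 1.43 and 1.47 CPM in KO, with no overlap (log2 fold change -0.38, edgeR adjusted p = 0.628). Of the 26, Hmmr, a spindle protein gene, was also separated with KO lower (-0.40), and Mybl2, a cell-cycle transcription factor gene, with KO higher (0.23), where 6.97% of all genes separated with KO lower and 7.46% with KO higher. Bub1b, a spindle checkpoint kinase gene, had the highest fold change of the list, 0.46 (adjusted p = 0.732), and Ccnb2, cyclin B2, had -0.21 (adjusted p = 0.823). Anln, an actin-binding protein of cell division that myelinating cells also make, was the most abundant averaging 51.0 ± 7.74 CPM over WT and 48.6 ± 8.91 CPM over KO (SD, n = 3).

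Of the 21 DNA replication and cell cycle entry genes, all were tested, 0 passed, and 13 fold changes were above 0 and 8 below, with a median of 0.04. Unadjusted, 1 of the 21 was higher in KO, near the 4.54% of all genes, namely Ccnd2 (cyclin D2; log2 fold change 0.17, edgeR adjusted p = 0.622). Pcna, the sliding clamp of DNA polymerase, averaged 21.1 ± 0.470 CPM over WT and 21.7 ± 0.956 CPM over KO (SD, n = 3). Ccnd1, cyclin D1, had a log2 fold change of 0.13 (edgeR adjusted p = 0.721). Cdt1, which licenses replication origins, had 0.23, and Uhrf1, which maintains DNA methylation at the fork, had -0.14.

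Cells outside the neuronal lineage also divide in the brain. Markers of oligodendrocyte precursors summed to between 150 and 162 CPM in WT and between 155 and 164 CPM in KO. Those of microglia summed to between 204 and 251 CPM in WT and between 195 and 237 CPM in KO. Of the 6 microglial markers, P2ry12, a purine receptor gene, was separated, at 26.2, 27.0 and 27.4 CPM in WT and 22.9, 19.0 and 21.9 CPM in KO (log2 fold change -0.34, edgeR adjusted p = 0.550), and the other 5 overlapped, where 6.97% of all genes separated in this direction. Matn4, 1 of the 6 oligodendrocyte precursor markers, was separated with KO higher (0.26, edgeR adjusted p = 0.618), as were 7.46% of all genes. Blood and marrow markers summed to between 95.7 and 133 CPM in WT and between 85.6 and 215 CPM in KO, mostly hemoglobin, while Mpo, a marrow precursor gene, had between 1 and 11 counts. Endothelial markers summed to between 211 and 220 CPM in WT and between 190 and 229 CPM in KO. No marker of these 4 lists was at 0 in all libraries, and the part of these cells in the Mki67 values was not tested.

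The stem cell zone that supplies the olfactory bulb lines the ventricles, beside ependymal cells and choroid plexus. The 7 choroid plexus markers summed to between 319 and 374 CPM in WT and between 377 and 452 CPM in KO, mostly Ttr, with all 7 fold changes above 0. Unadjusted, 3 of the 7 were higher, against 4.54% of all genes, and 0 passed after adjustment. Ttr, the thyroid hormone carrier transthyretin, and Aqp1, a water channel gene, were separated with KO higher (log2 fold changes 0.29 and 0.39, edgeR adjusted p = 0.576 and 0.579), against 7.46% of all genes, and the other 5 overlapped. The 5 ependymal markers summed to between 12.3 and 15.0 CPM in WT and between 14.9 and 17.2 CPM in KO, and Foxj1, a factor of ciliated cells, was separated with KO higher (0.37, edgeR adjusted p = 0.576), 1 of 5 against 7.46% of all genes. The other 4 overlapped, with log2 fold changes from -0.03 to 0.21. None of these 12 markers was at 0, and their part in the values of the 9 genes was not tested.

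Over all 7 lists of other neurogenesis, division and maturation genes, 120 of 128 genes were tested and 0 passed in edgeR, with 6 unadjusted, 3 in each direction, where 4.54% of all genes were higher and 3.38% lower. Libraries of WT and KO were fully separated for 6 of the 120 with KO higher and 7 with KO lower, against 7.46% and 6.97% of all genes. Limma-voom also called 0, with 7 of the 120 unadjusted, against 7.68% of all genes by that tool. DESeq2 called 0 with 7 of the 120 unadjusted, against 5.46% of all genes, leaving 65 without an adjusted p-value. Of 19 neural stem and progenitor genes, 18 were tested, with 11 fold changes above 0 and 7 below and a median of 0.02. Fabp7, a fatty acid binding protein of radial glia, had a log2 fold change of 0.18, and Hopx, a stem cell homeodomain protein, 0.01.

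Prom1, the membrane protein prominin of stem cells, stood at 31.7, 29.0 and 26.2 CPM in WT and 24.7, 25.4 and 26.1 CPM in KO, with no overlap (log2 fold change -0.19, edgeR adjusted p = 0.600). Nes, the intermediate filament nestin of stem cells, stood at 13.0, 14.7 and 17.5 CPM in WT and 14.4, 17.3 and 26.4 CPM in KO (log2 fold change 0.36, edgeR adjusted p = 0.653). KO library 3 was the highest, and in it Gfap, the astrocyte filament gene, stood at 248 CPM against 115 to 140 CPM in the other 5 libraries. The 5 astrocyte markers summed to 1204 CPM in KO library 3, against 1050 to 1124 CPM in the other 5 libraries. They did not all move together there: Aqp4, a water channel gene, and Gja1, a gap junction gene, were lowest in KO library 3, at 175 and 172 CPM. The summed endothelial markers, at 229 CPM, and the stem cell list genes Vim and Fabp7, at 57.9 and 31.7 CPM, were also highest in KO library 3. The part of these cells in the Nes values was not tested.

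All 23 genes of migrating neuroblasts and immature neurons were tested, with 12 fold changes above 0 and 11 below and a median of 0.02. Tubb3, a neuronal tubulin, averaged 226 ± 5.09 CPM over WT and 238 ± 6.49 CPM over KO (SD, n = 3; log2 fold change 0.08, edgeR adjusted p = 0.674). Stmn1, the tubulin-binding stathmin, had -0.0079. St8sia4, an enzyme that adds polysialic acid to cell surfaces, had -0.24 and an unadjusted p-value of 0.0236 (edgeR adjusted p = 0.596). Calb2, the calcium-binding protein calretinin, had 0.16 and an unadjusted p-value of 0.0398 (edgeR adjusted p = 0.622).

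Of 15 genes of the excitatory lineage, 13 were tested, with 4 fold changes above 0 and 9 below and a median of -0.05. Neurod1, a factor that granule cells keep, averaged 64.1 ± 4.86 CPM over WT and 65.2 ± 3.89 CPM over KO (SD, n = 3), and Btg2, an antiproliferative gene, had a log2 fold change of -0.23. Elavl4, an RNA-binding protein of neurons, had -0.04, and Mfap4, a matrix protein gene, had 0.08. Neurog2, which starts this route, had between 2 and 12 counts per library and was not tested.

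**Figure D4:**
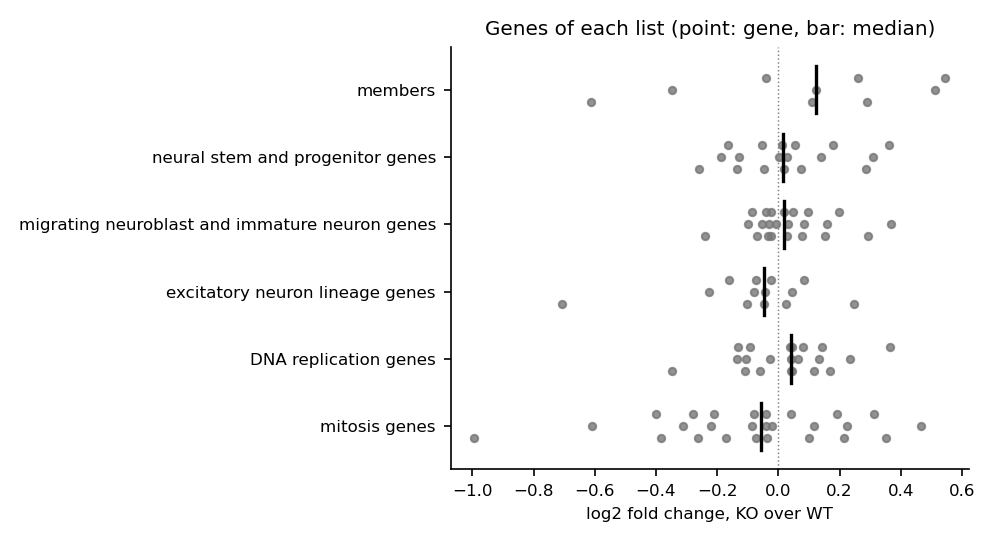
Log2 fold change, KO over WT, of every tested gene (points) in the 9 genes and in 5 lists, with the median of each list as a vertical bar. The medians of the 5 lists lie between -0.06 and 0.04, and that of the 9 genes is 0.12.

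The labels give no age, so the levels were set beside genes known to fall or rise as the brain matures. Of 12 genes higher in the immature brain, 9 were tested and 0 passed, and the RNA-binding protein genes Igf2bp1 and Igf2bp3 and the chromatin gene Hmga2 had between 0 and 8 counts per library. Lin28b, a blocker of let-7 processing, stood at 11.8, 14.0 and 13.3 CPM in WT and 11.2, 11.7 and 10.6 CPM in KO, with no overlap (log2 fold change -0.23, edgeR adjusted p = 0.606). Tubb2a and Gap43, a tubulin and a growth cone protein gene that adult neurons keep, had 0.07 and -0.04, and Tubb2a was separated with KO higher. Igf2bp2 had 0.23.

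All 10 genes higher in the mature brain were tested and 0 passed. Camk2a, a synaptic kinase gene, averaged 1616 ± 181 CPM over WT and 1602 ± 54.8 CPM over KO (SD, n = 3). Snap25, a vesicle fusion gene, had the lowest fold change of the list, -0.09 (edgeR adjusted p = 0.628). It lay between 1662.6 and 1756.3 CPM in WT and between 1514.4 and 1657.5 CPM in KO, with no overlap. Of the 10 genes, 1 was separated with KO lower, Snap25, and 1 with KO higher, Slc12a5, against 6.97% and 7.46% of all genes. Slc12a5, the chloride exporter KCC2 of mature neurons, stood at 521, 520 and 506 CPM in WT and 547, 564 and 559 CPM in KO, and its log2 fold change was 0.11 (edgeR adjusted p = 0.579). Per length Slc12a5 exceeded Slc12a2, the chloride importer NKCC1, 4.63-fold ± 0.179 in WT and 5.32-fold ± 0.282 in KO (SD, n = 3), and the groups did not overlap in this ratio. Per length Grin2a exceeded Grin2d, the pair of glutamate receptor subunits of mature and immature brain, 5.84-fold ± 0.431 in WT and 5.59-fold ± 0.237 in KO (SD, n = 3), with overlap. Dcx stood at 0.149 ± 0.0107 of the level per length of Rbfox3 (NeuN, a marker of mature neurons) in WT and 0.138 ± 0.0157 in KO (SD, n = 3).

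Ordered by level per length, averaged over the 6 libraries, Dcx was highest at 5.87 CPM per kilobase, followed by Sox11 (3.82), Sox4 (3.66), Dlx1 (3.38), Eomes (2.24), Dlx2 (1.58), Igfbpl1 (0.469), Mki67 (0.310) and Top2a (0.185). The ranges over libraries did not overlap between Dcx and Sox11 (5.30 to 6.25 and 3.19 to 4.63 CPM per kilobase) or between Dlx2 and Igfbpl1, and those of the other neighbours in this order did. Between the latter pair the gap ran from 1.18 as the lowest value of Dlx2 to 0.676 as the highest of Igfbpl1. These levels use all annotated exons as the length, which lowers genes with long minor exons. Neighbours in this order, such as Mki67 and Top2a, can change places with another length.

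**Figure D5:**
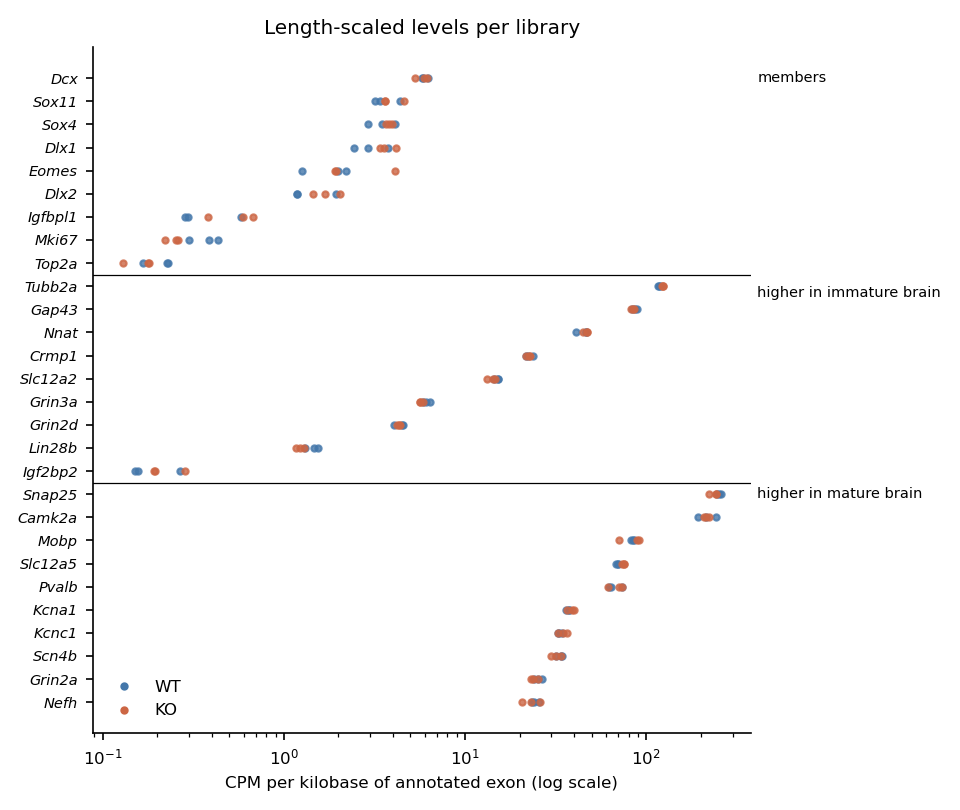
CPM per kilobase of annotated exon (log axis) in each library, WT in blue and KO in orange, for the 9 genes and for tested genes higher in the immature and in the mature brain. Dcx lies between 5.30 and 6.25 in all libraries, while Mki67 and Top2a lie below 0.5.

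The 9 genes were then compared by their patterns over the 6 libraries, as the root mean square difference between the deviations of log2 CPM from each gene's mean. Of the 36 pairs, Sox11 and Sox4 were the most alike at 0.10, followed by Sox11 and Dlx1 at 0.11 and by Dlx1 and Dlx2 at 0.12. Mki67 and Top2a ranked 9th at 0.24, and Eomes and Top2a were the least alike at 0.67. KO library 2 was the highest of the 6 for 5 of the 9 genes, and WT library 2 was the lowest for 5. Among 15217 other tested protein-coding genes, those most like Dcx were Elavl2, Dock5 and Paip1 (0.017, 0.018 and 0.018), where the median gene was at 0.12. Those most like Mki67 were Pi15, Tmem253 and Pln (0.07, 0.12 and 0.13), where the median gene was at 0.36. All 3 were scarce, between 0.604 and 1.18, 0.259 and 0.495, and 1.06 and 1.84 CPM, so counting error weighs on their patterns. This measure is over 6 libraries and favours genes that vary by a like amount.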

How the data were processed

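The authors deposited whole-number counts per gene in the layout of STAR, not normalized, for 6 libraries. The submitters' processing notes name cutadapt 1.9.1 and STAR 2.7.0f; the genome build and annotation are not given in the sources used here. All 55450 gene identifiers matched GENCODE M21 (GRCm38), which gave names, positions and exon lengths. The last column was used, which held between 94.6% and 94.8% of stranded counts; the first 4 rows, which name no gene, were left out. In this layout reads in several genes on a strand, or mapping to several places, are not counted.

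In R 4.3.3, edgeR 4.0.16 was run with filterByExpr, TMM scaling and the quasi-likelihood test on genotype over 6 libraries, with Benjamini-Hochberg adjustment over all 21237 genes (threshold 0.05), and was tested on simulated data. SE is the fold change over the square root of F, and intervals use it with the test's degrees of freedom. Poisson intervals (95%) cover counting error only. Libraries within a group differed beyond sampling noise (chi-square per degree of freedom 4.08 to 8.69), so each was kept.

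The 9 genes and the lists were chosen with earlier results of these data known. From each list the 2 genes highest per kilobase and the highest and lowest fold changes (mean of at least 1 CPM) were named, and for Dcx and Mki67 the 3 most alike protein-coding genes; 1 such gene is not reported here, and other names were chosen after values were seen. Alternatives were the unstranded column, 2 other scalings, 2 filters, DESeq2 1.42.0, limma-voom (limma 3.58.1), a replicate block and left-out libraries.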

Additional observations from a re-analysis of the deposited data

How the results depend on the processing

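The count of 0 among the 9 genes held in 15 of 16 alternatives, 2 of which, leaving out WT library 3 with KO library 2 or KO library 3, were chosen after seeing the data. With DESeq2, 5 of the 9 had no adjusted p-value and could not be called, Mki67 among them (Wald test unadjusted p = 0.00382). Without a filter on low counts 2 of the 9 passed in edgeR, Eomes (adjusted p = 0.000403) and Mki67 (0.0359), with 1 other listed gene, Nes. In that fit 298 of 37245 genes tested passed, a larger set than the 21237 of the main fit. The cause was not tested. Over all genes, 25 passed with DESeq2, 4 with the replicate block, 8 without WT library 3 and KO library 2, and from 2 to 5 with 1 library left out, the most without KO library 3. The replicate block called 0 of the 9 (2 unadjusted, against 6.85% of all genes), and Mki67 was -0.60 with it. Deviations of same-numbered libraries correlated at 0.040, -0.031 and -0.058, 1 of the 6 libraries, WT library 1, correlated best with its own number, and the numbers are not taken as pairs. Of 144 fold changes of the 9 genes under alternatives, 3 turned direction. Dcx ranged from -0.090 to 0.018 with 1 library left out, above 0 without KO library 3, and was 0.054 without WT library 3 and KO library 3; Sox11 ranged from -0.017 (without KO library 2) to 0.26. Mki67 stayed between -0.74 and -0.40. Counts of 29 to 159 per library limit Igfbpl1, Top2a and Mki67.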
